A study of Mus musculus with 3 samples.

Results

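The genes described here are 41 members of the lysosomal system, found by their symbols among the 33696 genes of the tables. They comprise 9 cathepsins, 9 subunits or accessory proteins of the vacuolar ATPase (V-ATPase), 7 proteins of cholesterol and lipid handling, 7 glycosidases and other hydrolases, 5 membrane proteins and the 4 MiT/TFE transcription factors. The group named glycosidases and other hydrolases also holds Grn (progranulin), which is not a hydrolase. All 41 had a row in the tables and all 41 had reads in macrophage-like nuclei of every library. They were followed in single-nucleus RNA sequencing of abdominal aortae from ApoE-/- mice on a C57Bl/6 background, a strain that lacks apolipoprotein E in every cell and develops plaques. Every animal had the same genotype and a high fat diet for 20 weeks. The exposure, to room air or to cigarette smoke, is also labelled as 20 weeks for every library. The room air library came from mice breathing room air, the smoke library from mice exposed to cigarette smoke without an abdominal aortic aneurysm, and the aneurysm library from smoke-exposed mice with one. Nuclei were taken from slowly frozen tissue, so the counts are of nuclear RNA. Each group was 1 library, and the sources used here do not give how many animals entered it. With 1 library a group no test between groups was made, and every interval below is a 95% interval that covers counting error only, not the spread between animals.

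Lysosomes are acidic compartments that take apart material delivered by endocytosis, phagocytosis and autophagy. The V-ATPase pumps protons into them, cathepsins cut proteins at the resulting low pH, and lipases, glycosidases and lipid carriers release cholesterol, sugars and fatty acids. In the arterial wall macrophages load their lysosomes with modified lipoprotein, and several cathepsins are also secreted and can cut elastin and collagen. The MiT/TFE factors bind short E-box elements in the promoters of many lysosomal genes.

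After filtering, 11022 nuclei remained in the room air library, 14001 in the smoke library and 5707 in the aneurysm library. The deposited tables summed to 73891039, 117247048 and 15634797 unique molecular identifiers (UMIs, a count of captured RNA molecules), and the kept nuclei had median UMIs of 4058.5, 6225 and 1443. The aneurysm library thus stood apart in depth. It also stood apart in makeup, with 11.3% adipocyte-like and 10.4% brown adipocyte-like nuclei, against at most 0.75% of either in the other libraries. Between 26 and 46 barcodes were shared by any pair of libraries. Macrophage-like nuclei numbered 4628 (42.0%) with room air, 5833 (41.7%) with smoke and 708 (12.4%) with aneurysm. Clusters left unnamed included a shallow one led by Cd72, Lars2 and Cmss1 that scored on macrophage markers and made up 8.03%, 5.14% and 9.88% of the nuclei. A deeper unnamed cluster made up 5.14%, 5.51% and 5.73%, and another 6.36%, 5.60% and 13.8%. Unnamed clusters were counted among all other nuclei but not ranked among the named classes. All 11 macrophage markers were detected in the macrophage-like class of each library, at a summed level of 2606, 3100 and 4284 CPM (the UMIs of a gene scaled to the same total in every class and library).

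The letters that MiT/TFE factors are known to bind were looked for in RefSeq promoter windows (GRCm38.p6) of 250 bases before to 50 bases after each gene start. Such a window was matched for 33 of the 41 members. CACGTG, a palindrome and so the same on both strands, was found in 8 of these 33 (24.2%), namely Ctsa, Ctsd, Ctsl, Atp6v0d1, Atp6v1a, Gla, Lamp1 and Mcoln1. At least 1 window held the same letters in 8.09% of all genes with a window. The share was 11.1% for genes measured in macrophage-like nuclei and 26.9% for 119 other lysosomal genes. The longer GTCACGTG, searched on both strands (CACGTGAC on the other) and always holding a CACGTG, was found in 6 members (18.2%). These were Ctsa, Ctsd, Atp6v0d1, Gla, Lamp1 and Mcoln1, against 2.55% of all genes with a window. GTCACGTG followed by AC, a longer palindrome, was found in none of the 33 and in 0.37% of all genes with a window. A match is a description of the letters and no evidence of binding. The stretches upstream of the start that hold a match are shown for 7 members, which include enzymes, a pump subunit and membrane proteins. The capitals mark 1 match in each.
Ctsa, chr2:164833734-164833772, plus strand: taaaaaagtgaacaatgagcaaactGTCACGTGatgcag
Ctsd, chr7:142387893-142387952, minus strand: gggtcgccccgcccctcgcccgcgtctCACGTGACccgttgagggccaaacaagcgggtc
Ctsl, chr13:64370724-64370770, minus strand: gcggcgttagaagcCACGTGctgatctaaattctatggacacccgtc
Atp6v1a, chr16:44139358-44139417, minus strand: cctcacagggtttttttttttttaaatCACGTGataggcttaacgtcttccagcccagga
Gla, chrX:134601167-134601226, minus strand: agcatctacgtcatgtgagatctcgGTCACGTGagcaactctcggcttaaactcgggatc
Lamp1, chr8:13159106-13159160, plus strand: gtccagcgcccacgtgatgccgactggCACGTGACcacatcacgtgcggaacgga
Mcoln1, chr8:3500421-3500480, plus strand: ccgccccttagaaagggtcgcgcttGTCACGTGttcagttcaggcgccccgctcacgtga
The CACGTG in capitals began between 12 bases (Ctsa) and 236 bases (Ctsl) before the gene start. The lower-case letters of Lamp1 and Mcoln1 hold the same letters again. Ctsl and Atp6v1a held the shorter letters only.

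In each library, the members were macrophage genes more often than genes at large. Set against all other nuclei of the same library, the CPM of macrophage-like nuclei was at least 1.5 times higher for 40 of the 41 members in room air, 39 in smoke and 39 in the aneurysm library, where 22.8%, 19.9% and 22.4% of all measured genes were. The median ratio over the members was 2.94, 2.61 and 3.29, and over all genes 0.994, 0.930 and 0.927. The macrophage-like class held the highest level of all named classes with 50 or more nuclei for 32, 32 and 38 members. For 30 members it did so in all 3 libraries. The same ranks were not counted over all genes, so these counts describe the members only. The classes ranked were not the same, and numbered 7, 10 and 8. In the aneurysm library the B-like (6 nuclei), dendritic-like (15) and T or NK-like (12) classes were too small to be ranked. In room air and smoke, dendritic-like or B-like nuclei led for Ctsh, Atp6ap2, Man2b1, Ppt1, Laptm5 and Tfeb. The count of 38 is thus not directly comparable with the others. The members took no part in forming the clusters.

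Only 2 members were at least 5 times higher in macrophage-like than in all other nuclei in each library, a V-ATPase subunit and a transcription factor. Atp6v0d2, the d2 subunit of the membrane domain of the pump, known from osteoclasts and macrophages, stood at 2040, 1947 and 963 CPM in macrophage-like nuclei of the room air, smoke and aneurysm libraries. Its ratio to the rest was 9.28, 8.00 and 12.5. Its next highest level was 473 CPM in T or NK-like nuclei of room air and 840 CPM in B-like nuclei of smoke, classes in which the summed macrophage markers stood at 34.5% and 43.2% of their macrophage-like level. The part of macrophage RNA in these levels was not tested. Tfec, the MiT/TFE member whose expression is known to be largely myeloid, stood at 166, 127 and 129 CPM with ratios of 7.16, 5.17 and 10.3. In all, 6, 2 and 11 members passed this limit in the single libraries, against 2.64%, 1.77% and 4.20% of all genes. The number that passed it in every library ran from 0 to 3 over the alternatives.

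Scarb2, the lysosomal membrane protein that carries glucocerebrosidase, and Smpd1, acid sphingomyelinase, were highest outside the macrophage-like class in every library, though the leading class changed. Scarb2 stood at 188, 213 and 135 CPM in macrophage-like nuclei, at 214, 273 and 178 CPM in fibroblast-like nuclei and at 161, 261 and 188 CPM in smooth muscle-like nuclei. The order of these classes thus differed between libraries. The leading class for Scarb2 was dendritic-like in room air (219 CPM), fibroblast-like in smoke and brown adipocyte-like in the aneurysm library (209 CPM). Scarb2 was lower in endothelial-like nuclei, at 78.1, 95.5 and 59.9 CPM. Smpd1 was counted at 1.4, 1.64 and 2.68 CPM in macrophage-like nuclei, the last on 4 UMIs. In endothelial-like nuclei it stood at 3.93, 4.31 and 2.61 CPM. Its leading class was B-like in room air (10.2 CPM), brown adipocyte-like in smoke (4.68 CPM) and neuron-like in the aneurysm library (15.8 CPM). These classes held 392717, 1067929 and 126885 UMIs in all, so each of these levels rested on few UMIs. In the aneurysm library the ratio of macrophage-like to all other nuclei was 1.16 (0.294 to 3.34).

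Dendritic-like nuclei, which numbered 50 or more in the room air and smoke libraries only, exceeded the macrophage-like class for several members. Ctsh, an aminopeptidase cathepsin, stood at 210 CPM in dendritic-like against 127 CPM in macrophage-like nuclei in room air and at 235 against 166 CPM in smoke. Laptm5, a lysosomal membrane protein of blood cells, stood at 295 against 142 CPM and at 309 against 183 CPM. Laptm5 was also higher in T or NK-like than in macrophage-like nuclei, at 258 CPM with room air and 299 CPM with smoke. Tfeb, the best known regulator of lysosomal genes, was highest in B-like nuclei in these libraries, at 313 and 262 CPM against 191 and 195 CPM in macrophage-like nuclei.

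**Figure D1:**
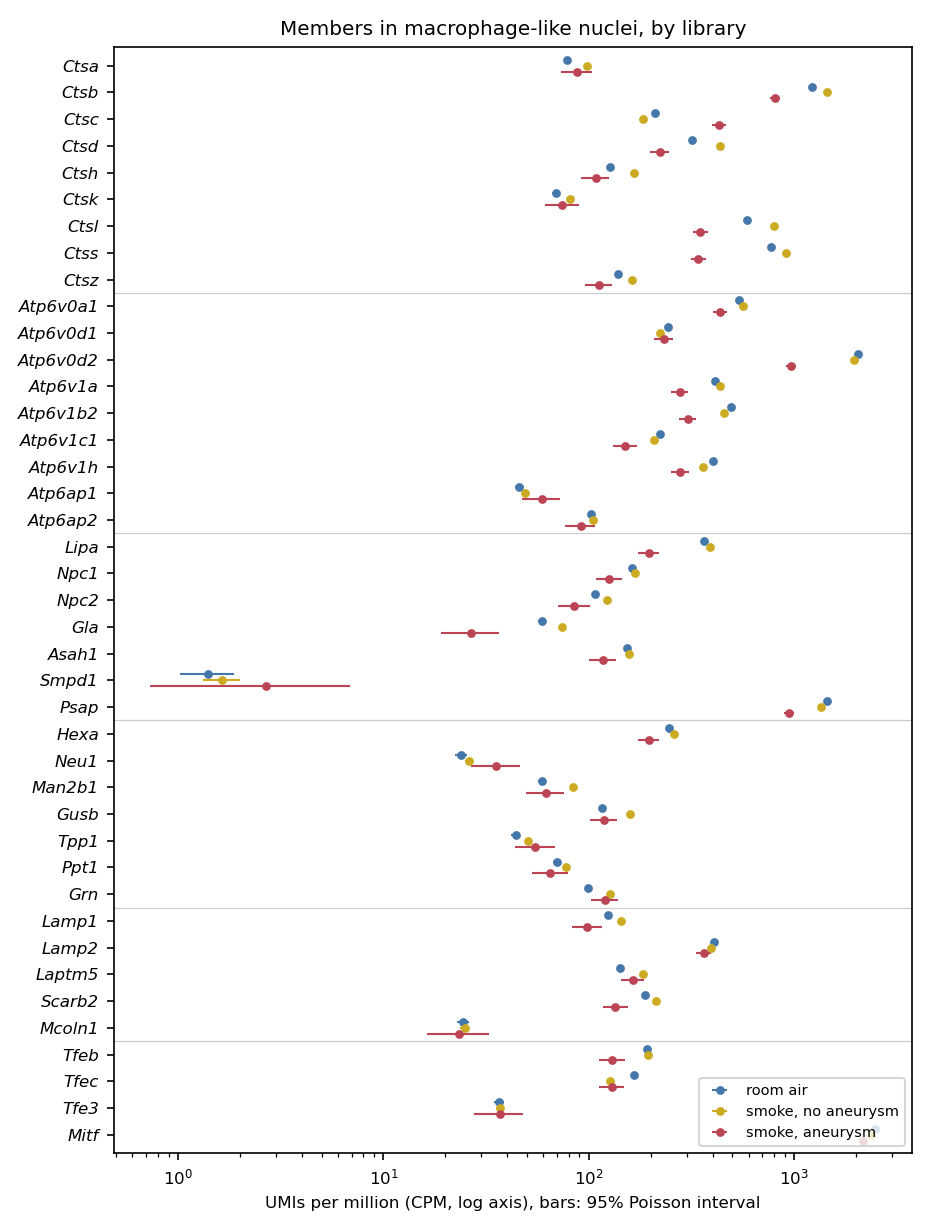
Level of each member in macrophage-like nuclei (CPM on a log axis) in the room air, smoke and aneurysm libraries, with grey lines between role groups and bars for the 95% Poisson interval (counting error only). Room air and smoke points lie close together for most members, while Ctss, Ctsl, Gla and Atp6v0d2 lie lower and Ctsc lies higher in the aneurysm library.

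The macrophage-like class consisted of 7 clusters. Cluster 2 was led by Ms4a14, Aoah and Ms4a7, and cluster 3 had Mmp12 and Mfge8 among its leading genes. Cluster 4 was led by Zfp618, Fgf13 and Fat3, and cluster 9 by Adgre4, Gpr141 and Itgal, genes of the monocyte-like list. Cluster 11 was led by Ccdc148 and Cd5l, cluster 20 by F13a1 and Cd163, and cluster 23 by the cell cycle gene Mki67. The foam or lipid-associated list (10 genes, all detected) summed to 11854, 14361 and 9772 CPM in cluster 3 of the room air, smoke and aneurysm libraries, and to 1214, 1787 and 844 CPM in cluster 20. The resident-like list (9 genes, all detected in cluster 20) summed to 10381, 9161 and 8246 CPM in cluster 20 and to at most 308 CPM in cluster 3. Only clusters 3, 4 and 20 had 50 or more nuclei in all 3 libraries.

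Members of the same pathway peaked in different clusters. Cluster 3 held the highest level of 10 members in room air and 12 in smoke, cluster 9 of 11 and 13, and cluster 11 of 11 and 9. Cluster 20 held the lowest level of 21 and 23 members. In the aneurysm library it held the lowest level of 23, compared with clusters 3 and 4 only. Highest and lowest clusters were not counted over all genes, so these counts describe the members only. Cluster 20 was the smallest macrophage-like cluster in room air (96 nuclei) and smoke (218 nuclei). It was the largest in the aneurysm library (335 nuclei). The effect of cluster size on these counts was not tested. In both the room air and the smoke library, the 10 members highest in cluster 3 included Ctsk, Ctsl, the lipase Lipa, the cholesterol exporter Npc1, the β-glucuronidase Gusb and 5 V-ATPase subunits (Atp6v0a1, Atp6v1a, Atp6v1b2, Atp6v1c1 and Atp6v1h).

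**Figure D2:**
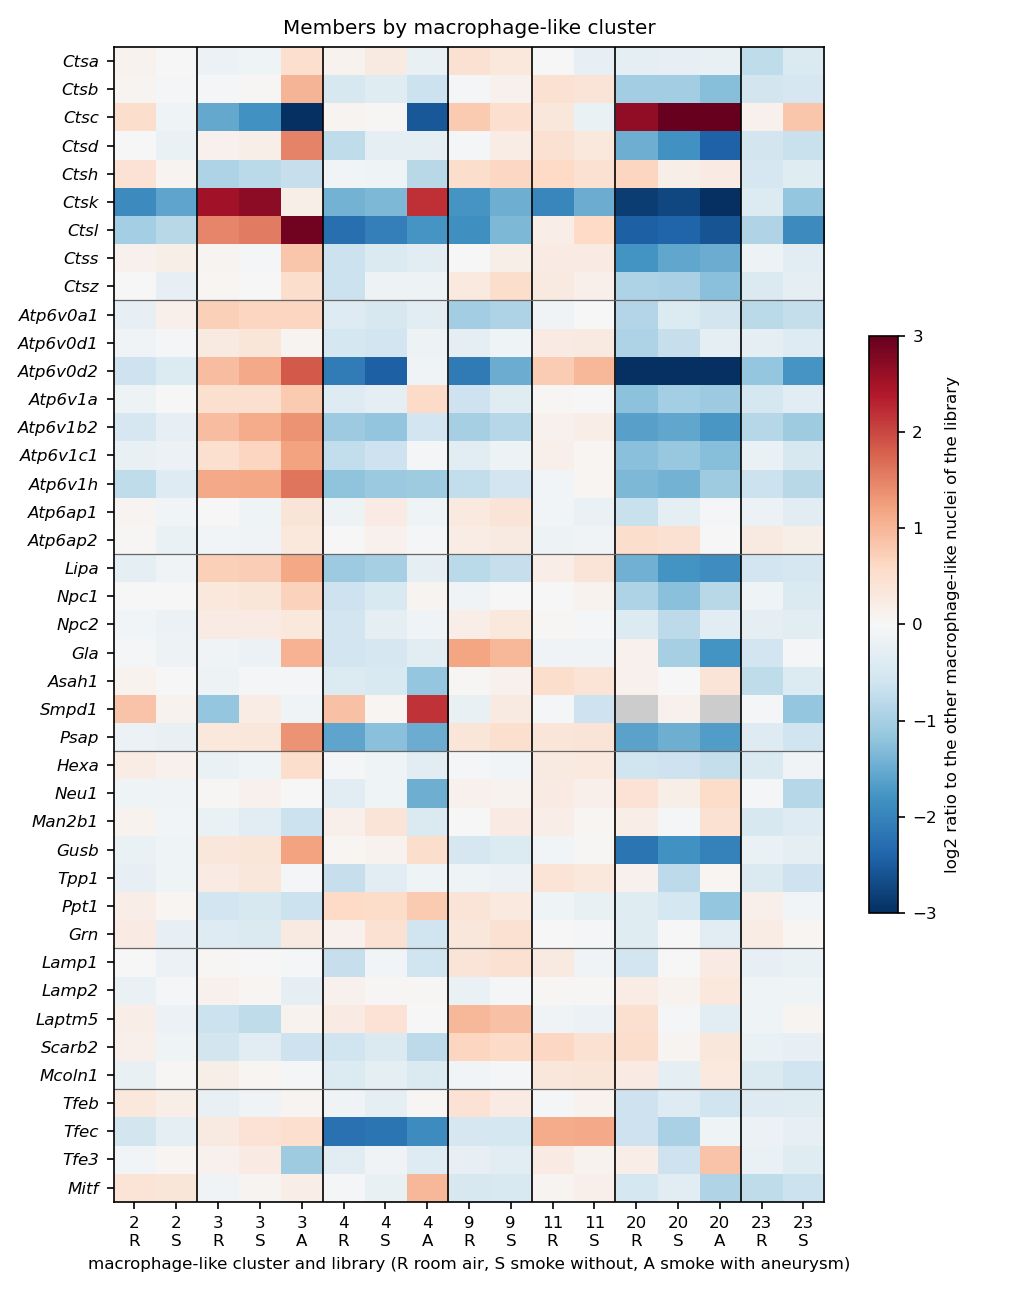
Level of each member in each macrophage-like cluster with 50 or more nuclei, as the log2 ratio to the other macrophage-like nuclei of the same library (colour, limited to -3 to 3; grey, no UMI), with columns for cluster and library. Ctsl, Lipa and Atp6v0d2 are red in cluster 3 and blue in cluster 20 of every library, while Ctsc is blue in cluster 3 and red in cluster 20.

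Among the cathepsins, Ctsk, a strong collagenase known from osteoclasts, was among the most uneven. In cluster 3 it stood at 141, 210 and 81.5 CPM in the room air, smoke and aneurysm libraries. In clusters 2, 9 and 11 it stood between 20.0 and 32.3 CPM in room air and smoke, and in cluster 20 between 9.61 and 14.1 CPM over all libraries. In cluster 4, Ctsk stood at 27.9 and 34.9 CPM in the room air and smoke libraries but at 205 CPM in the aneurysm library, on 56 UMIs of which 12 came from 1 nucleus. Ctsl, an endopeptidase cathepsin with elastin-cutting activity, was likewise higher in cluster 3 (973, 1534 and 965 CPM) than in cluster 20 (109, 152 and 84.6 CPM).

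Ctsc, which activates serine proteases of immune cells, ran the other way. It stood at 1266, 1354 and 951 CPM in cluster 20 and at 96.3, 64.7 and 33.1 CPM in cluster 3, so that the ranges of these clusters over the libraries did not overlap. Between cluster 20 and cluster 3 the level differed 13.1 times in room air, 20.9 times in smoke and 28.7 times in the aneurysm library. In cluster 4 it stood at 222, 186 and 87.9 CPM.

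Ctsb, Ctsd and Ctss, abundant cathepsins of phagocytes, were highest in cluster 11 in room air and smoke. Ctsb stood there at 1584 and 1815 CPM, against 599 and 710 CPM in cluster 20. Ctsd, an aspartic protease, stood at 410 and 518 CPM against 115 and 124 CPM. Ctss, which keeps activity at neutral pH and cuts the invariant chain, stood at 878 and 1050 CPM against 221 and 310 CPM. Cluster 20 was lowest for all of them in both libraries.

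Of the V-ATPase, Atp6v0d2 spanned the widest range over macrophage-like clusters. It stood at 2885, 3221 and 2050 CPM in cluster 3, at 3104 and 3338 CPM in cluster 11 of room air and smoke, and at 115, 139 and 70.5 CPM in cluster 20. The range from lowest to highest cluster was 26.9, 24.1 and 29.1 times in the 3 libraries. Atp6v0a1, a large membrane subunit of the pump, spanned 2.61, 2.41 and 1.76 times. Atp6v0d1, the d1 subunit found in most cells, spanned 2.18, 1.9 and 1.17 times. Atp6ap2, an accessory protein also known as the prorenin receptor, was highest in cluster 20 in room air and smoke, at 147 and 141 CPM against at most 123 CPM in any other macrophage-like cluster.

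Of the lipid and sugar enzymes, Lipa, lysosomal acid lipase, stood at 478, 552 and 328 CPM in cluster 3 and at 135, 115 and 74.0 CPM in cluster 20. Psap, the precursor of the saposins that assist sphingolipid breakdown, stood at 1651, 1595 and 1714 CPM in cluster 3 and at 474, 491 and 400.0 CPM in cluster 20. Hexa, the α subunit of β-hexosaminidase, spanned 1.77, 1.80 and 1.81 times from lowest to highest cluster. Gusb spanned 5.18, 4.15 and 5.03 times, with cluster 20 lowest in each library. Lamp2, a major glycoprotein of the lysosomal membrane, spanned 1.32, 1.16 and 1.31 times.

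The MiT/TFE factors did not follow a single pattern. Tfec was highest in cluster 11 (304 and 235 CPM in room air and smoke) and lowest in cluster 4 (38.9 and 31.4 CPM, and 40.3 CPM in the aneurysm library). Mitf, known from pigment cells and osteoclasts, was highest in cluster 2 (3070 and 2838 CPM) and lowest in the proliferating cluster 23 (1495 and 1534 CPM). In the aneurysm library Mitf stood at 3632 CPM in cluster 4 and 1404 CPM in cluster 20. Tfeb was highest in cluster 9 (250 and 227 CPM) and spanned 2.00, 1.51 and 1.37 times. Tfe3 stood between 20.4 and 51.1 CPM in every cluster and library with 50 or more nuclei.

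A further cluster, left unnamed, carried Ctsk in room air and smoke at levels above those of any macrophage-like cluster. It held 56, 28 and 8 nuclei and was led by Stac, Dcstamp and Alox5. Ctsk stood there at 486 CPM in room air (228 UMIs, 69 of them in 1 nucleus) and at 584 CPM in smoke (199 UMIs, 54 of them in 1 nucleus). In the aneurysm library Ctsk was seen as 4 UMIs, all in 1 nucleus, and at 169 CPM lay below macrophage-like cluster 4. Dcstamp, a fusion protein of osteoclasts and giant cells, stood at 254 and 378 CPM in the room air and smoke libraries, and Nfatc1, a transcription factor of osteoclasts, at 211 and 217 CPM. Acp5, the osteoclast marker tartrate-resistant acid phosphatase, had 1 and 16 UMIs there and none in the aneurysm library. Of the other genes of the osteoclast list, Ocstamp, Calcr, Oscar, Mmp9 and Siglec15 had no UMI in this cluster in any library, and Itgb3 had 1 UMI in each. Nfatc1 was about as high in a dendritic-like cluster, at 196 and 217 CPM. Ctsl stood at only 53.3 and 79.2 CPM in this cluster, below its 973 and 1534 CPM in cluster 3.

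The first comparison, smoke against room air, addresses exposure to cigarette smoke in mice without aneurysm. In macrophage-like nuclei no member was 1.5 times higher and none 1.5 times lower in smoke, where 10.9% and 5.20% of the 16980 measured genes were. Smaller shifts were mostly upward, with 31 members above and 10 below the room air level. The median log2 ratio was 0.10, and 0.02 over all genes. The shift differed by role, with medians of 0.25 for the cathepsins (8 of 9 higher), 0.20 for glycosidases and other hydrolases (7 of 7 higher) and -0.07 for the V-ATPase (4 of 9 higher).

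The members named here are those whose interval kept a log2 distance of at least 0.32 from no difference. Ctsd stood at 318 CPM in room air and 435 CPM in smoke, 1.37-fold higher (1.34 to 1.4). Ctsl stood at 591 and 798 CPM, 1.35-fold higher (1.33 to 1.37), and 2.31-fold higher with the libraries clustered one by one. Ctsh stood at 127 and 166 CPM, 1.31-fold higher (1.26 to 1.36). Among the sugar-cleaving enzymes, Man2b1, lysosomal α-mannosidase, stood at 59.1 and 83.8 CPM, 1.42-fold higher (1.35 to 1.5). Gusb stood at 115 and 158 CPM, 1.37-fold higher (1.32 to 1.42). Laptm5 stood at 142 and 183 CPM, 1.296-fold higher (1.251 to 1.342). Tfec was the 1 member of this set that was lower, at 166 and 127 CPM, 1.31-fold lower in smoke (1.26 to 1.36). Ctsb and Ctss shifted less, at 1.19-fold (1.17 to 1.20) and 1.18-fold (1.17 to 1.20) higher.

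The direction was compared within each of the 7 macrophage-like clusters. Higher in smoke in all 7 were 9 members, namely Ctsa, Ctsb, Ctsd, Ctss, Ctsz, Atp6v1a, Hexa, Man2b1 and Gusb, against 8.05% of the genes measured in every cluster. Tfec was lower in all 7, by 1.13 to 1.67 times, as were 7.15% of genes. Ctsl was higher in 6 of the 7 clusters and 1.46 times lower in the proliferating cluster 23. Atp6v0d2 was higher in 5 and lower in 2, which were clusters 4 and 23.

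**Figure D3:**
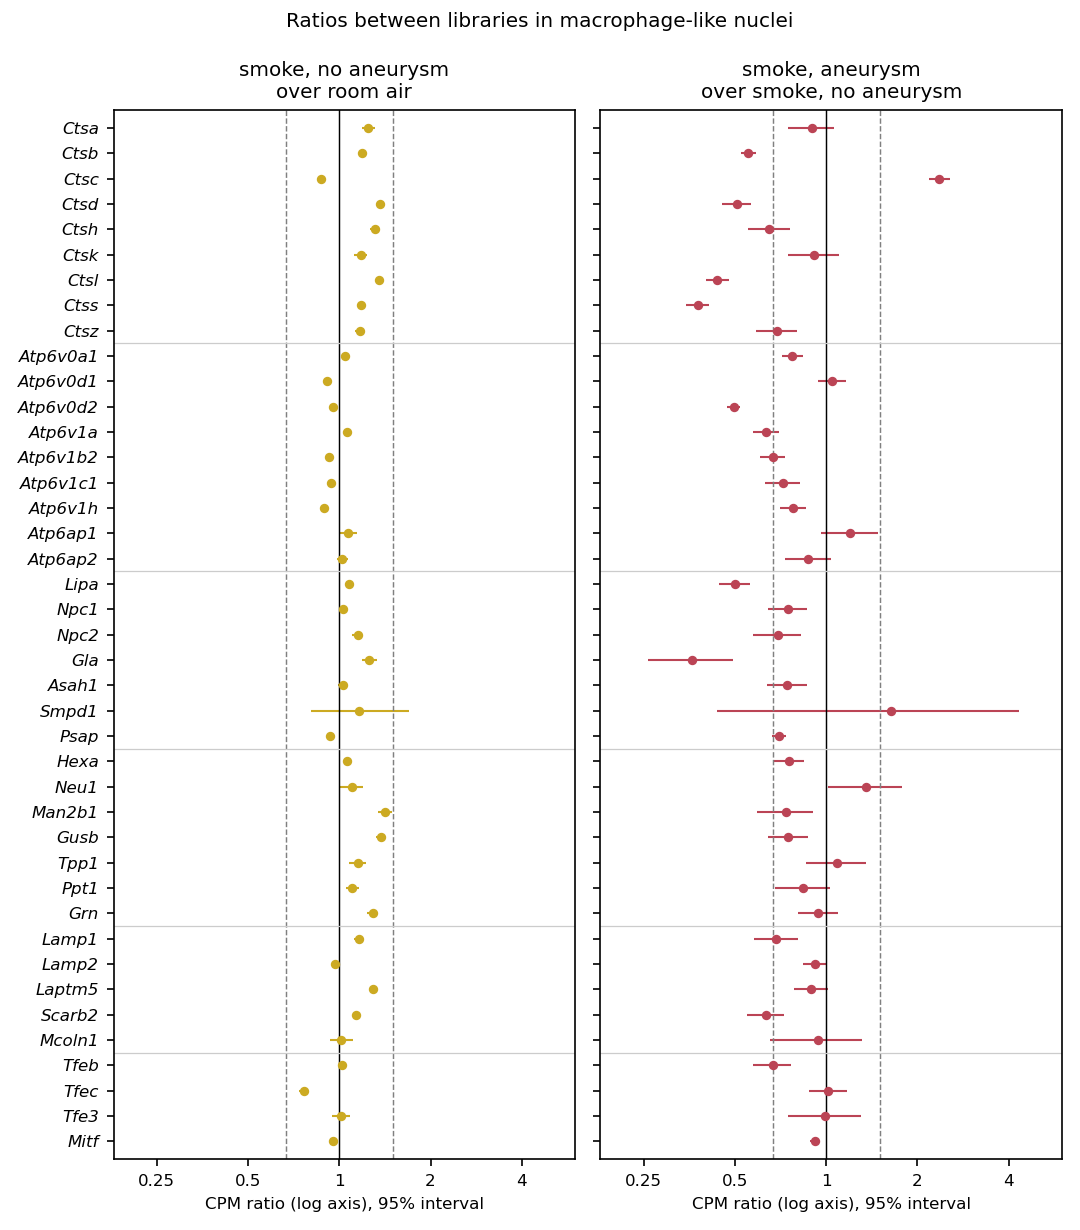
CPM ratio of each member between libraries in macrophage-like nuclei (log axis), smoke over room air on the left and aneurysm over smoke on the right, with 95% counting intervals; the dashed lines mark 1.5-fold. No point passes the dashed lines on the left, while 12 members lie at or beyond the lower line on the right and Ctsc lies far above the upper one.

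The second comparison, aneurysm against smoke, sets smoke-exposed mice with an aneurysm against those without. In macrophage-like nuclei 12 members were at least 1.5 times lower in the aneurysm library and 2 at least 1.5 times higher, where 16.3% and 23.9% of the 14761 measured genes were. In all, 34 members were lower and 7 higher. The median log2 ratio was -0.42, against 0.05 over all genes. Cathepsins lay lowest as a group (median -0.62, 8 of 9 lower), followed by lipid handling (-0.51), the V-ATPase (-0.37), glycosidases and other hydrolases (-0.25), membrane proteins (-0.16) and the MiT/TFE factors (-0.07). The depth of macrophage-like nuclei differed along with these levels, with median UMIs of 7438 in smoke and 1553.5 in the aneurysm library. Macrophage-like nuclei with at least 1000 UMIs, 5807 of 5833 in smoke and 516 of 708 in the aneurysm library, were also thinned to 1000 UMIs each. Shallower nuclei were left out, so the set of nuclei changed as well. The number at least 1.5 times lower was then 11, of 40 members measured. Of the 12, only Ctsl, Ctss, Lipa and Gla were past 1.5-fold lower under every alternative run.

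Ctss showed the largest difference of the abundant cathepsins. It stood at 907 CPM in smoke and 342 CPM in the aneurysm library, 2.66-fold lower (2.43 to 2.90), and at 767 CPM in room air. Ctsl stood at 798 and 349 CPM, 2.29-fold lower (2.10 to 2.50), with a range over the alternatives from 1.51 to 3.81 times. Ctsd stood at 435 and 221 CPM, 1.97-fold lower (1.76 to 2.2), and Ctsb at 1451 and 804 CPM, 1.81-fold lower (1.70 to 1.91). These 4 cathepsins were also below the room air level in the aneurysm library. Ctsh was 1.54-fold lower (1.32 to 1.81), from 166 to 108 CPM. Ctsk, at 81.3 and 74.3 CPM, and Ctsa, the protective protein of neuraminidase, at 98.0 and 87.7 CPM, had intervals that included no difference.

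Among pump subunits, Atp6v0d2 stood at 1947 CPM in smoke and 963 CPM in the aneurysm library, 2.02-fold lower (1.92 to 2.13). With equal weight for clusters 3, 4 and 20, Atp6v0d2 was 1.24-fold lower. Atp6v1a and Atp6v1b2, the catalytic and nucleotide-binding subunits of the cytosolic domain, were 1.58-fold (1.43 to 1.74) and 1.5-fold (1.37 to 1.65) lower. Atp6v1a went from 436 to 277 CPM and Atp6v1b2 from 456 to 303 CPM. Atp6v0a1 stood at 562 and 435 CPM, 1.29-fold lower (1.2 to 1.4), whereas Atp6v0d1 stood at 221 and 232 CPM with an interval that included no difference.

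Lipa stood at 391 CPM in smoke and 196 CPM in the aneurysm library, 2.00-fold lower (1.78 to 2.25). Gla, α-galactosidase A, stood at 74.0 and 26.8 CPM, 2.76-fold lower (2.03 to 3.87), on 40 UMIs in the aneurysm library. Psap stood at 1347 and 944 CPM, 1.43-fold lower (1.35 to 1.51). Of the remaining named members, Scarb2 was 1.58-fold lower (1.38 to 1.83), from 213 to 135 CPM. Tfeb was 1.5-fold lower (1.30 to 1.74), from 195 to 130 CPM. Hexa and Gusb were both 1.33-fold lower, with intervals of 1.18 to 1.5 and 1.15 to 1.56. Lamp2, at 394 and 362 CPM, and Mitf, at 2357 and 2161 CPM, differed by 1.09-fold each.

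Ctsc was the exception among the cathepsins. It stood at 210, 183 and 432 CPM in macrophage-like nuclei of the room air, smoke and aneurysm libraries, 2.36-fold higher (2.18 to 2.56) in aneurysm than in smoke. Within each of the clusters present in all libraries the order was the opposite. Ctsc was 1.95-fold lower in the aneurysm library in cluster 3 (1.14 to 3.68), 2.11-fold lower in cluster 4 (1.41 to 3.31) and 1.42-fold lower in cluster 20 (1.29 to 1.57). Cluster 20, where Ctsc was highest, made up 2.07% of macrophage-like nuclei in room air, 3.74% in smoke and 47.3% in the aneurysm library. With the 3 clusters given equal weight in both libraries, the log2 ratio of Ctsc was -0.58. The other member past 1.5-fold higher was Smpd1, on 4 UMIs in the aneurysm library, at a ratio of 1.64 with an interval from 0.437 to 4.34.

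The mix of clusters changed along with the other members too. Clusters 2, 9, 11 and 23 had between 17 and 47 nuclei each in the aneurysm library. The foam or lipid-associated list summed to 8064, 8922 and 4365 CPM over the macrophage-like class of the room air, smoke and aneurysm libraries, and the resident-like list to 388, 445 and 3291 CPM. Within clusters 3, 4 and 20 taken singly, the median log2 ratio of the members in aneurysm against smoke was -0.21, -0.36 and -0.31. The number at least 1.5 times lower was 10 of 41, 14 of 40 and 10 of 40, where 19.4%, 21.1% and 15.8% of genes were. Lower in all 3 clusters were 18 members, against 21.1% of the genes measured in each, among them Ctsb, Ctsd, Ctsh, Ctsl, Ctss, Lipa, Gla, Scarb2 and Tfeb. With equal weight for the 3 clusters, 8 members were at least 1.5 times lower.

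Within clusters, Ctss stood at 892 CPM in smoke and 504 CPM in the aneurysm library in cluster 3, at 703 and 286 CPM in cluster 4 and at 310 and 160 CPM in cluster 20. Ctss was lower by 1.77, 2.46 and 1.93 times. Atp6v0d2 behaved differently by cluster. It stood at 3221 and 2050 CPM in cluster 3 and at 139 and 70.5 CPM in cluster 20, but at 406 and 908 CPM in cluster 4, where it was 2.24-fold higher in the aneurysm library (1.96 to 2.55). Ctsk was also higher in cluster 4, 5.88-fold (4.34 to 7.85), and 2.58-fold lower in cluster 3 (1.82 to 3.77). Tfec was higher in all 3 clusters, by 1.06 to 1.86 times, the 1 member to be so against 17.7% of genes. Cluster 4 held 74 nuclei in the aneurysm library.

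The third comparison, aneurysm against room air, shares both libraries with the others. Its median log2 ratio was -0.31 (0.04 over all genes), with 8 members at least 1.5 times lower and 2 higher, where 14.5% and 22.0% of genes were. The 8 were Ctsb, Ctsl, Ctss, Atp6v0d2, Atp6v1b2, Lipa, Gla and Psap, and Ctsc and Smpd1 were higher. Under every alternative run only Ctss and Gla of the 8 were past 1.5-fold lower. Ctss was 2.24-fold lower (2.06 to 2.45) and Atp6v0d2 was 2.12-fold lower (2.01 to 2.23).

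Counted over all nuclei of a library, the members differed more than within macrophage-like nuclei. All 41 were lower in the aneurysm than in the smoke library, 32 of them at least 1.5 times, where 23.7% of genes were. The median log2 ratio was -1.16, against -0.42 in macrophage-like nuclei. The share of macrophage-like nuclei differed between these libraries as given above.

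Outside the macrophage-like class, the members were mostly higher in smoke than in room air and lower in the aneurysm than in the smoke library. In endothelial-like nuclei 9 of 41 members were at least 1.5 times higher in smoke than in room air (background 14.4%), with a median log2 ratio of 0.34 against 0.10 over all genes. In aneurysm against smoke 26 of 41 were at least 1.5 times lower there (background 20.3%), with a median of -0.81. In fibroblast-like nuclei the medians were 0.41 and -0.78, with 14 of 40 higher (background 16.0%) and 26 of 40 lower (background 20.4%). In smooth muscle-like nuclei they were 0.43 and -0.94, with 14 of 40 higher (background 16.3%) and 23 of 39 lower (background 26.5%). In adipocyte-like and brown adipocyte-like nuclei, which could be compared for aneurysm against smoke only, the medians were -0.97 and -0.50, with 27 of 39 lower (background 24.6%) and 17 of 38 lower (background 24.9%). In T or NK-like, B-like and dendritic-like nuclei, compared for smoke against room air only, the medians were 0.41, 0.50 and 0.09.

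RNA of macrophage genes was also counted in nuclei of these classes. Mmp12, Gpnmb and Trem2, macrophage genes chosen as a reference after their values were seen, were counted in endothelial-like nuclei at 8.52% to 12.6% of their macrophage-like level in room air, at 11.1% to 15.1% in smoke and at 3.55% to 7.04% in the aneurysm library. In fibroblast-like nuclei the reference genes stood at 9.54% to 12.9%, 15.3% to 18.2% and 5.45% to 9.15%, and the median member at 29.0%, 34.2% and 27.2% of its macrophage-like level. In these endothelial-like and fibroblast-like nuclei the reference genes thus moved in the same order as the members. Their part in the result was not tested. In brown adipocyte-like nuclei the reference genes stood at 9.36% to 13.7% in smoke and at 4.21% to 15.7% in the aneurysm library, ranges that overlapped. In endothelial-like nuclei 4, 5 and 4 members stood at or below the highest reference gene, and 22, 20 and 29 stood above 2 times that value. The latter included Ctsh, Atp6v0a1, Npc1, Npc2, Asah1, Lamp1, Lamp2 and Scarb2 in room air and smoke. All 11 macrophage markers were detected in endothelial-like nuclei of room air and smoke and 10 of 11 in the aneurysm library, where Fcgr1 was at 0. Their sum was 15.0%, 17.2% and 7.16% of that in macrophage-like nuclei. In smooth muscle-like nuclei this sum was 21.5%, 20.7% and 12.5%, and the median member stood at 21.4%, 25.0% and 16.9%. The reference genes stood there at 6.08% to 10.6%, 14.0% to 17.8% and 4.94% to 8.18%. In adipocyte-like nuclei the reference genes stood at 20.8% to 36.2% in smoke and at 4.86% to 9.09% in the aneurysm library. There 19 and 5 members stood at or below the highest reference gene, and 0 and 27 above 2 times that value. In T or NK-like nuclei the reference genes stood at 25.9% to 35.4% in room air and 33.1% to 51.5% in smoke. In B-like nuclei these were 19.9% to 36.0% and 33.1% to 39.0%. The part of macrophage RNA there was not tested.

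**Figure D4:**
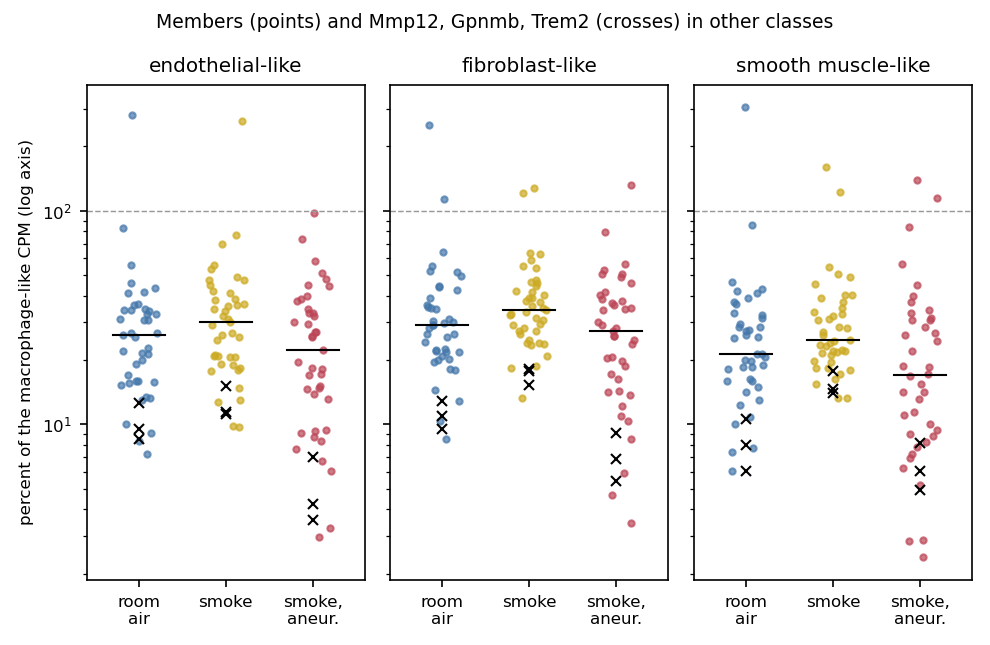
Level of each member (points) and of Mmp12, Gpnmb and Trem2 (crosses) in endothelial-like, fibroblast-like and smooth muscle-like nuclei, as a percent of the level in macrophage-like nuclei of the same library (log axis; genes without a UMI are not drawn; black bar, median of the members drawn; dashed line, 100%). Most members lie above the crosses in each panel, and the bar and the crosses lie lowest in the aneurysm library.

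The wider lysosomal system was read from 152 further genes, of which 139 were measured in macrophage-like nuclei in smoke against room air and 137 in the other comparisons. In smoke against room air 7 were at least 1.5 times higher and none lower, where 10.9% and 5.20% of all genes were, with a median log2 ratio of 0.07. In aneurysm against smoke 11 were higher and 25 lower, where 23.9% and 16.3% of all genes were, with a median of -0.22. Both medians had the sign of the members' medians and were nearer to 0.

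By the same ranking, the genes that stood out in smoke against room air included Cst3, cystatin C, a secreted inhibitor of cysteine cathepsins, at 21.0 CPM in room air and 51.1 CPM in smoke, 2.43-fold higher (2.23 to 2.64). Cd68, a macrophage glycoprotein of late endosomes that is also in the marker list of the class, stood at 23.1 and 47.9 CPM, 2.07-fold higher (1.91 to 2.25). The pump genes Atp6v1f and Rnasek were 1.60-fold and 1.63-fold higher. Mcoln2, a channel of the mucolipin family, Rab7, a GTPase of late endosomes, Plekhm1, an adaptor of lysosome fusion, and Dmxl2, a V-ATPase assembly factor, were lower, by 1.18 (Dmxl2) to 1.29 (Mcoln2) times. None of these 4 passed 1.5-fold.

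These further genes were compared between libraries over the whole macrophage-like class only, and not within its clusters. Cluster 20 made up 3.74% of that class in smoke and 47.3% in the aneurysm library, and its part in the ratios below was not tested. In aneurysm against smoke, the genes named as higher all came from the list of other hydrolases. Hgsnat, an acetyltransferase of heparan sulfate breakdown, stood at 19.8 CPM in smoke and 46.2 CPM in the aneurysm library, 2.34-fold higher (1.80 to 2.98). Pld4, an endolysosomal nuclease, was 2.17-fold higher (1.70 to 2.72), from 24.4 to 52.9 CPM. Plbd1, a phospholipase B-like protein, was 1.88-fold higher (1.45 to 2.41). Cd68 stood at 47.9 and 9.38 CPM, 5.10-fold lower (3.04 to 9.35), on 14 UMIs in the aneurysm library. Slc15a3, a peptide transporter of the endolysosome, was 3.24-fold lower (2.66 to 3.99), and Mcoln3, another mucolipin, was 3.55-fold lower (2.21 to 6.10). Ctse, an aspartic cathepsin, had 360 UMIs in smoke and none in the aneurysm library. It was thus at least 3.22-fold lower against a floor of 3 UMIs in that library, while its 95% counting interval began at 2.61-fold. In aneurysm against room air, Pld4, Hgsnat, Tpcn1 and Plbd1 led the higher genes, at 2.76, 2.61, 2.21 and 2.28 times. Slc15a3, Mcoln3 and Igf2r, the receptor that sorts hydrolases to lysosomes, were 2.89, 3.19 and 2.15 times lower. Ctse was at least 3.01-fold lower against the same floor of 3 UMIs, with a 95% counting interval that began at 2.42-fold.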

How the data were processed

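The deposited tables hold UMI counts per gene and barcode, 1 matrix per library, with no barcode under 500 UMIs. Per the file headers they were written by cellranger 8.0.1, whereas Cell Ranger 2.2.0 appears, with STAR and mm10, in the submitters' processing notes. The sources used here do not say which version made the deposited counts, nor whether intronic reads were counted. Nuclei with at least 500 UMIs, 300 genes and under 5% mitochondrial UMIs were kept and clustered with scanpy 1.11.5 (2000 variable genes, 30 principal components, 20 neighbours, Leiden resolution 1). The 41 members and 152 further lysosomal genes were left out of the clustering genes. Clusters were named from marker lists by mean score (at least 0.5, 0.25 above the next, 3 markers detected), a rule set after the data were seen, as was the use of the osteoclast list as a competitor. Scrublet marked 399, 463 and 5 nuclei as doublets, which is 0.0876% in the aneurysm library, where the caller did not work, so doublets were left in all libraries.

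UMIs were summed per class and library and scaled to CPM. Levels have exact Poisson and ratios exact conditional binomial 95% intervals, checked on simulated counts. They cover counting error only. A gene counted as measured once the libraries compared held 20 UMIs of it between them, and a class compared with at least 50 nuclei in both. Members named singly had an interval bound at a log2 distance of 0.32 or more from no difference in smoke against room air or aneurysm against smoke, were among the 2 with most UMIs in their role, or were at least 5 times higher in, or always highest outside, macrophage-like nuclei. Others were named after their values were seen, namely those compared by class, cluster and promoter. Up to 4 further lysosomal genes per direction were named by their interval bound. One gene that this rule names is not reported here. The members and lists were chosen with earlier results of these data known. The alternatives are given below.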

Additional observations from a re-analysis of the deposited data

Results flagged for a closer look

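Members whose interval lay at a log2 distance of at least 0.32 from no difference in opposite directions in different classes were singled out, with the difference between classes itself not tested. Ctsc was 2.36-fold higher in aneurysm than in smoke in macrophage-like nuclei and 3.00-fold lower in fibroblast-like nuclei (60.4 and 20.1 CPM, the latter on 29 UMIs). In aneurysm against room air, Ctsc was 2.05-fold higher in macrophage-like and 3.04-fold lower in fibroblast-like nuclei. Within macrophage-like clusters 3, 4 and 20 taken singly Ctsc was lower in the aneurysm library in both comparisons, as in fibroblast-like nuclei, and cluster 20, where it was highest, held 2.07%, 3.74% and 47.3% of macrophage-like nuclei in the room air, smoke and aneurysm libraries. Tfec was 2.41-fold higher in smoke than in room air in smooth muscle-like nuclei (12.4 and 29.8 CPM, on 23 and 114 UMIs, 19 of the latter in 1 nucleus) and 1.31-fold lower in macrophage-like nuclei. In smooth muscle-like nuclei Tfec thus stood at 7.44% and 23.5% of its macrophage-like level in room air and smoke, where the macrophage genes Mmp12, Gpnmb and Trem2 stood at 6.08% to 10.6% and at 14.0% to 17.8% of theirs and the summed macrophage markers at 21.5% and 20.7%, and the part of macrophage RNA was not tested.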

How the results depend on the processing

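The median log2 ratio of the members in macrophage-like nuclei kept its sign under all 16 alternatives. It ranged from 0.07 to 0.24 in smoke against room air, from -0.53 to -0.27 in aneurysm against smoke and from -0.38 to -0.10 in aneurysm against room air. With the libraries clustered one by one, smoke against room air gave 0.24 and 2 members at least 1.5 times higher (Ctsk and Ctsl), against 0. Thinning to 1000 UMIs and equal weight for the clusters each gave 1. The number at least 1.5 times higher in aneurysm against smoke was 1 with 15 principal components, with thinning, with equal weights and with a minimum of 100 UMIs, against 2. In aneurysm against room air it was 1 with 15 components and with 100 UMIs. The number lower in that comparison was 13 without a filter on nuclei, without the mitochondrial limit and at resolution 0.5, 14 with the members kept for clustering and 4 with equal weights, against 8. In endothelial-like nuclei, smoke against room air gave 0.55 without the top 5% of doublet scores and 0.10 after thinning, against 0.34. The cause of these shifts was not tested. Of the members past 1.5-fold in a comparison, Ctsc and Smpd1 reversed. With equal weight for the clusters Ctsc had log2 ratios of -0.58 (aneurysm against smoke) and -0.56 (aneurysm against room air). With the CPM averaged over nuclei Smpd1 had log2 ratios of -0.030 and -0.075. Among the 23 members named by the rule, others not past 1.5-fold changed sign under at least 1 alternative: 6 in smoke against room air (such as Atp6v0d2, -0.22 to 0.34), 3 in aneurysm against smoke (Tfec, -0.23 to 0.37, Laptm5 and Mitf) and 4 in aneurysm against room air (Ctsd, Man2b1, Gusb and Mitf). Counting the shallow cluster as macrophage-like was an alternative chosen after seeing the data. Rescaling by the median of ratios moved all genes by at most 0.015 (log2). No paired analysis was possible because each group is 1 library, and for the same reason no replicate could be left out. The depth of the aneurysm library limits members with few UMIs there, such as Smpd1 (4) and Gla (40).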
